A study of Mus musculus with 12 samples.

Results

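The repertoire of T cell receptor alpha (Tcra) transcripts was compared between DPASE knockout (KO) and wild-type (WT) mice 24 h after tamoxifen. The comparison rests on 4 of the series' 12 libraries, 2 WT and 2 KO, chosen by their titles. All 4 hold CD3e-negative, CD4 and CD8 double-positive (DP) thymocytes sorted as ZsGreen-positive from mice aged 4 to 6 weeks that had received 1 mg of tamoxifen. The WT group is labelled homozygous WT and the KO group homozygous DPASEKO. Both groups carried TcrdCreER, a tamoxifen-activated Cre recombinase placed at the Tcra-Tcrd loci and derived from strain 129, and a ZsGreen reporter at Rosa26 (Rosa26ZsG/+ in the genotype field, Rosa26ZsG/ZsG in the strain field), on C57BL/6J. Total RNA was amplified by template-switch RACE from a primer in the constant segment Trac. The series speaks of groups of 2 mice and leaves unstated whether a library is 1 mouse. The p-values therefore measure only how far libraries spread, part of which may be technical. In the main fit that spread came from the 8 ZsGreen-positive libraries of 24 h and 48 h. The tables list V and J segments of Tcra alone, so neither the genotype labels nor the DP phenotype could be checked against a gene in them.

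DP thymocytes assemble the receptor's alpha chain by joining a V segment (Trav) to a J segment (Traj) with the RAG1 and RAG2 recombinase. The first joins use Traj segments at the 5' end of the J array, where the TEA promoter lies, and Trav segments close to it. Later joins on the same allele replace earlier ones with Trav segments farther upstream and Traj segments farther 3', until the cell is positively selected or dies. Tcrd lies between the Trav and Traj segments and is cut out by these joins. DPASE, as background, is a regulatory element of the Rag1-Rag2 locus. Traj numbers count down toward the 3' end, so a high mean Traj number marks a repertoire near its 5' start. The series' title names RORγt, RAG expression and the Tcra repertoire, and the comparison asks how the first day of joins after labelling differs without DPASE.

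The J segments on which the comparison turns are shown here, first 4 that rose in KO and then 4 that fell. The sequences are the GENCODE M21 transcripts (GRCm38, plus strand of chromosome 14, C57BL/6J), whereas the Tcra-Tcrd loci of these mice are labelled as strain 129. Each is the whole coding segment, written 5' to 3'. Capitals mark the conserved phenylalanine-glycine-any-glycine motif of a J segment, searched in frame on the coding strand with either phenylalanine codon and any glycine codon.
Traj58, chr14:54157280-54157342: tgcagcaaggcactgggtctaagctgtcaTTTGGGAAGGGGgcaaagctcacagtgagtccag
Traj57, chr14:54158505-54158569: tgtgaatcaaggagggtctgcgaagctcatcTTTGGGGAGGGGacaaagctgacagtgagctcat
Traj53, chr14:54162644-54162709: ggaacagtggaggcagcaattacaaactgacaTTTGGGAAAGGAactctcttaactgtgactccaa
Traj52, chr14:54165316-54165381: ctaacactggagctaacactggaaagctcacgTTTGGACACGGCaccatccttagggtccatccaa
Traj33, chr14:54185358-54185414: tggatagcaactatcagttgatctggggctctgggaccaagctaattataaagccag
Traj30, chr14:54189866-54189924: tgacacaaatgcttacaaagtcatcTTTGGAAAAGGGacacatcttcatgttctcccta
Traj13, chr14:54205741-54205797: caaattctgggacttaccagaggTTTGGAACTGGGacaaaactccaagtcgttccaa
Traj2, chr14:54217836-54217901: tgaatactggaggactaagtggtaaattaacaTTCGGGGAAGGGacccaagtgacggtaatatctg

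The motif was found in 39 of the 43 Traj segments (90.7%), and was not found in Traj44, Traj38, Traj33 or Traj7. Segment lengths ran from 57 to 66 bases. Traj58 and Traj2 mark the ends of the listed array and lie 60.6 kb apart.

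The libraries stood apart by replicate number before any comparison of genotypes. Each table lists a fraction for every Trav-Traj pair, and in replicate 1 of both genotypes these fractions summed to 0.996 (WT) and 0.995 (KO). In replicate 2 they summed to 1.98 and 1.97. Every table was therefore divided by its own total over the 82 Trav segments listed in all 4, of 84 listed in any. A share below is a percent of that total. The smallest share above 0 was 0.000854% and 0.000822% in replicate 1 of WT and KO, against 0.00401% and 0.00578% in replicate 2. Of the 3526 pairs, 265 and 518 stood at 0 in replicate 1 of WT and KO, and 1510 and 1985 in replicate 2. The number of reads, molecules or clonotypes behind a table is unknown, so no counting interval is given. Differences are therefore shown for replicate 1 and replicate 2 apart.

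Trav usage followed the replicate number and Traj usage the genotype. By Bray-Curtis distance, the percent of usage that differs between 2 libraries, WT and KO of the same number differed by 6.76% (replicate 1) and 10.4% (replicate 2) in Trav usage. The 2 WT libraries differed by 32.6% and the 2 KO libraries by 32.7%. In Traj usage the order was the opposite. The distance was 9.50% within WT and 8.84% within KO, against 15.7% and 18.6% between genotypes at the same number. Trav15-2-dv6-2, whose dv name marks a V segment that can also join in Tcrd, took 1.07% and 9.77% of the WT libraries (replicates 1 and 2) and 1.097% and 12.7% of the KO libraries. Trav14-3 took 3.72% and 10.6% in WT and 4.62% and 8.94% in KO. Trav6-6 went the other way, with 2.73% and 0.382% in WT and 2.25% and 0.358% in KO. In these 3 segments, named for their replicate differences after the values were seen, replicate 2 departed from replicate 1 in the same direction in both genotypes. What sets the replicates apart was not tested.

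**Figure D1:**
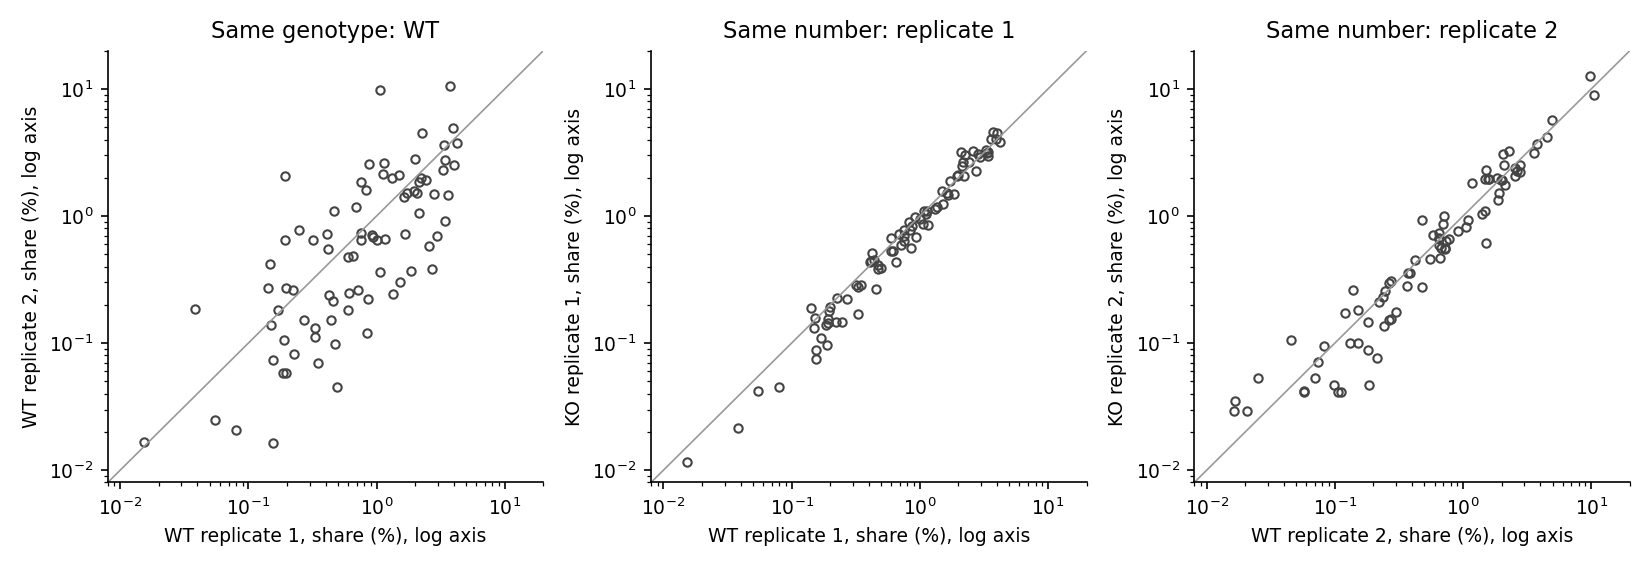
Share of the repertoire (%) of each of 82 Trav segments in pairs of libraries, both axes logarithmic, with the line of equality. Points scatter widely between the 2 WT libraries (Bray-Curtis distance 32.6%) and lie close to the line between WT and KO of the same replicate number (6.76% and 10.4%).

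Usage of the J array was shifted toward its 5' end in both KO libraries. The usage-weighted mean Traj number was 41.7 and 42.99 in WT (replicates 1 and 2) and 45.6 and 47.1 in KO. KO exceeded WT by 3.92 segment numbers in replicate 1 and by 4.11 in replicate 2, and the groups did not overlap. Counted from the 5' end, 50% of usage was reached at Traj43 and Traj45 in WT and at Traj48 and Traj49 in KO. In distance this was 17.5 kb and 15.6 kb from Traj58 in WT, and 12.5 kb and 11.4 kb in KO. The point of 90% of usage lay 37.2 kb and 32.6 kb from Traj58 in WT and 28.8 kb and 28.1 kb in KO. With 2 libraries against 2, an exact two-sided permutation test cannot go below p = 0.33, so no test was made on these library values. The libraries are bulk RNA, in which fewer cells carrying a join and less Tcra RNA per cell cannot be told apart.

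**Figure D2:**
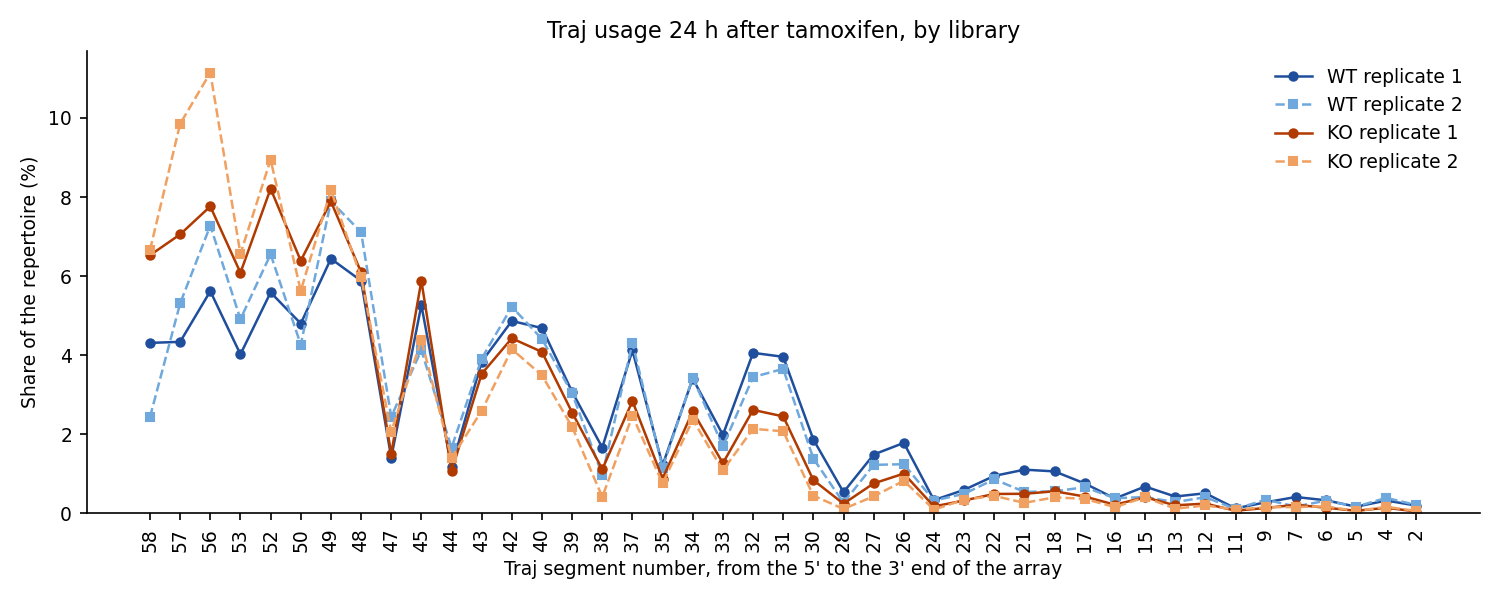
Share of the repertoire (%) of each Traj segment, in 5' to 3' order, in the 4 libraries of 24 h (lines join the segments of 1 library). Both KO lines run above both WT lines from Traj58 to Traj50, cross them between Traj49 and Traj44, and run below them over most of the rest.

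Across the 43 Traj segments, 4 rose in KO and 22 fell (9.3% and 51.2% of those tested), by limma on log2(percent + 0.01) with Benjamini-Hochberg adjustment at 0.05. With the replicate number as a block 6 rose and 27 fell, the 26 above among them. The block added Traj56 and Traj50 (adjusted p = 0.0112 and 0.0356) to the rises and Traj38, Traj28, Traj18, Traj11 and Traj7 (adjusted p from 0.000119 to 0.0307) to the falls. The groups did not overlap in 6 segments with KO higher (14%) and 29 with KO lower (67.4%). The direction was the same in replicate 1 and replicate 2 in 41 segments, 8 higher and 33 lower in KO. The other 2 were Traj48 and Traj47. The median log2 difference was -0.66. Shares sum to 100%, and the split between gains and losses depends on the scale. With each library's log2 values centred on their mean, every difference moved up by 0.53, the median became -0.13, and 7 segments rose and 5 fell.

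The 5' window by the TEA promoter, Traj58 to Traj53, held 18.3% and 19.9% of usage in WT and 27.4% and 34.2% in KO. Of its 4 listed segments, 3 rose and none fell. Traj58, the most 5' listed segment, took 4.31% and 2.44% of the WT libraries and 6.53% and 6.66% of the KO libraries. WT replicate 2 was the lowest of the 4. The log2 difference was 1.02 (SE 0.27, adjusted p = 0.0135, limma), made of 0.60 in replicate 1 and 1.45 in replicate 2. Traj57 took 4.34% and 5.31% in WT and 7.06% and 9.85% in KO, a log2 difference of 0.80 (SE 0.21, adjusted p = 0.0135, limma). Both KO libraries exceeded both WT libraries. Traj56 was the most used segment of KO replicate 2, with 5.62% and 7.28% in WT and 7.76% and 11.1% in KO. Its difference of 0.54 missed the threshold (adjusted p = 0.0703, limma) and passed it with the replicate number as a block (adjusted p = 0.0112). Traj53 took 4.02% and 4.91% in WT and 6.09% and 6.56% in KO (log2 difference 0.51, SE 0.18, adjusted p = 0.0374, limma).

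In the next window, Traj52 to Traj45, which holds the Traj49 promoter, 1 of 6 segments rose. The window held 29.4% and 32.4% in WT and 36.0% and 35.2% in KO. Traj52 took 5.59% and 6.55% in WT and 8.21% and 8.95% in KO (log2 difference 0.50, SE 0.16, adjusted p = 0.0263, limma), with no overlap between the groups. Traj49, beside the internal promoter, took 6.44% and 7.89% in WT and 7.89% and 8.18% in KO. The lower KO value and the higher WT value lay side by side, and the difference of 0.17 did not pass (adjusted p = 0.457, limma). Of the 6, Traj52, Traj50, Traj49 and Traj45 were higher in KO in both replicates, Traj45 by 0.16 and 0.09, whereas Traj48 and Traj47 were of mixed direction.

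Between Traj44 and Traj39 no segment passed the test, though KO lay below WT without overlap in 4 of 5. The window held 17.6% and 18.2% in WT and 15.7% and 13.8% in KO. Traj39 had the largest difference, with 3.07% and 3.03% in WT and 2.55% and 2.19% in KO (log2 difference -0.37, adjusted p = 0.069, limma). On the centred scale its difference was 0.16, so the direction in this window depends on the scale.

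Losses began at Traj37, and 6 of the 7 segments from Traj38 to Traj31 fell. The window held 20.4% and 18.7% in WT and 13.7% and 11.3% in KO. Traj33, the J segment of the receptor of mucosal-associated invariant T (MAIT) cells, took 1.98% and 1.70% in WT and 1.27% and 1.09% in KO (log2 difference -0.64, SE 0.17, adjusted p = 0.0135, limma). Both KO values were below both WT values. Traj38 took 1.66% and 0.976% in WT and 1.12% and 0.417% in KO, where KO replicate 1 exceeded WT replicate 2. It was not called (log2 difference -0.89, adjusted p = 0.0986, limma), and was with the replicate block (adjusted p = 0.00356). Its difference ran from -0.19 without KO replicate 2 to -1.59 without KO replicate 1, and it was called without KO replicate 1 or WT replicate 2. On the centred scale none of the 7 was called, with a median of -0.13.

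On the log2 scale the 3' windows had the lowest medians, while in percentage points the window Traj38 to Traj31 had the largest drop in mean share. From Traj30 to Traj22, 6 of 7 segments fell and the window went from 7.54% and 5.80% in WT to 3.83% and 2.69% in KO. Traj30 took 1.87% and 1.39% in WT and 0.840% and 0.447% in KO (log2 difference -1.38, SE 0.31, adjusted p = 0.00823, limma). The 2 KO libraries were the 2 lowest. From Traj21 to Traj12, 5 of 7 fell, and the window held 4.91% and 3.25% in WT and 2.55% and 1.92% in KO. Traj13 took 0.425% and 0.284% in WT and 0.203% and 0.118% in KO (log2 difference -1.12, SE 0.30, adjusted p = 0.0135, limma). Traj18, the J segment of the receptor of invariant natural killer T (NKT) cells, took 1.06% and 0.555% in WT and 0.558% and 0.405% in KO. Its groups overlapped slightly, and its log2 difference of -0.68 had an adjusted p of 0.0876 (limma), or 0.00549 with the replicate block. The difference ran from -0.22 without WT replicate 1 to -1.14 without WT replicate 2, where it was called.

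At the 3' end, from Traj11 to Traj2, 5 of 7 segments fell. The window held 1.83% and 1.72% of usage in WT and 0.809% and 0.864% in KO, and both KO libraries were below both WT libraries. Traj2, the last listed segment, took 0.195% and 0.210% in WT and 0.0460% and 0.0588% in KO. Its log2 difference of -1.77 (SE 0.20, adjusted p = 0.00083, limma) was the largest of all 43 and was -1.87 in replicate 1 and -1.68 in replicate 2. On the centred scale it was -1.24 and still called. In median log2 difference the 7 windows ran 0.67, 0.15, -0.27, -0.66, -1.15, -0.99 and -1.06 in 5' to 3' order.

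**Figure D3:**
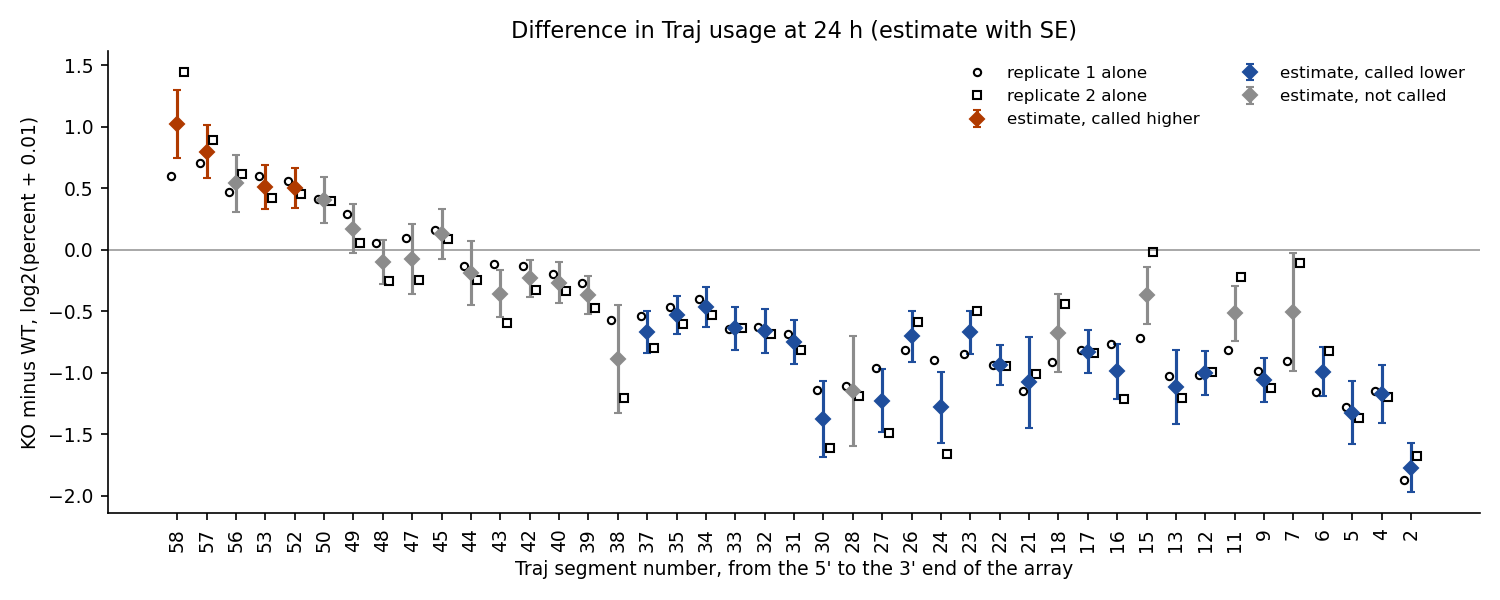
Difference between KO and WT in each Traj segment on the log2(percent + 0.01) scale, in 5' to 3' order. Diamonds with bars are limma estimates with their SE, coloured where called, and open symbols are replicate 1 and replicate 2 alone. Differences fall from 1.02 at Traj58 through 0 near Traj48 to -1.77 at Traj2.

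These calls lean on single libraries. Without KO replicate 2 none of the segments rose and 12 fell, and without WT replicate 1 the counts were 1 and 13. Left without KO replicate 2, the log2 difference of Traj58 was 1.01 (adjusted p = 0.0772, limma), and without WT replicate 2 it was 0.61. Left without either 48 h KO library, which enters only through the spread, 2 segments rose and 22 fell. With only the 4 libraries of 24 h, 2 segments rose and 18 fell. Traj53 and Traj52 lost their call there (log2 differences 0.51 and 0.50, adjusted p = 0.107 for each, limma). Without WT replicate 1 their log2 differences were 0.36 and 0.39. Traj30 and Traj2 were called under every alternative tried.

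The shift along the J array was seen with Trav segments of every part of the V array. By rank along the chromosome the 82 Trav segments formed a distal zone of 28, far from the J array, a central zone of 27 and a proximal zone of 27. Crossed with the 7 Traj windows this gave 21 blocks, of which 3 rose (14.3%) and 12 fell (57.1%) by limma. The blocks regroup the same usage as the single Traj segments and are not independent of them. The fit gave every block the same SE (0.26), so their spread was pooled over blocks that are not independent of each other. The adjusted p-values of blocks may therefore be too small. With only the 4 libraries of 24 h, 3 blocks rose and 7 fell, with a smallest adjusted p of 0.0120 (limma). In both replicates 6 blocks were higher in KO and 15 lower. The 3 that rose were the window Traj58 to Traj53 with each zone.

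Distal Trav segments joined to Traj58 to Traj53 held 2.94% and 3.06% in WT and 4.23% and 5.67% in KO (log2 difference 0.71, adjusted p = 0.0129, limma). Proximal Trav with the same window held 12.2% and 13.6% in WT and 18.5% and 22.7% in KO (log2 difference 0.67, adjusted p = 0.0181, limma). Both KO libraries were above both WT libraries in each of these blocks. At the other corner, distal Trav joined to Traj11 to Traj2 held 0.307% and 0.317% in WT and 0.108% and 0.129% in KO (log2 difference -1.33, adjusted p = 4.54e-05, limma). Proximal Trav with that window held 1.03% and 1.02% in WT and 0.494% and 0.506% in KO (log2 difference -1.03, adjusted p = 0.000875, limma). Without WT replicate 1, or without KO replicate 2, 0 blocks rose and 4 fell. Centring each library moved the counts to 6 up and 4 down.

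**Figure D4:**
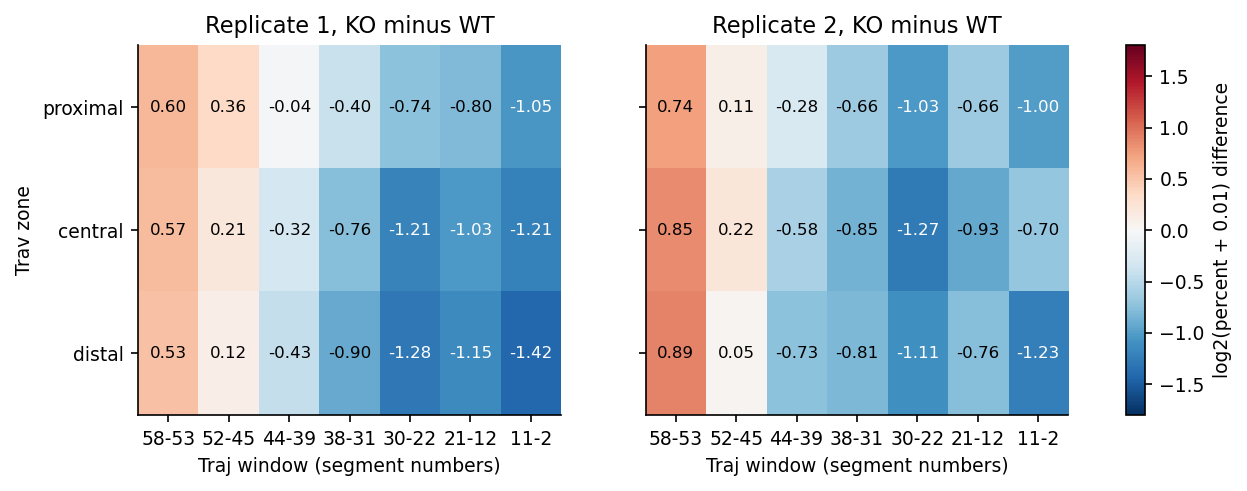
Difference between KO and WT, log2(percent + 0.01), in 21 blocks of Trav zone (rows) by Traj window (columns), for replicate 1 (left) and replicate 2 (right). In both panels all blocks of the 2 most 5' windows are above 0 and all others below 0, down to -1.42 for distal Trav with Traj11 to Traj2 in replicate 1.

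Within single Trav segments the J partners also lay farther 5' in KO. The mean Traj number was computed for each of the 72 Trav segments with a mean share of at least 0.25% over the 8 ZsGreen-positive libraries. It rose in 24 (33.3%) and fell in 0 (0%) by limma with Benjamini-Hochberg adjustment, and 35 had an unadjusted p under 0.05. It was higher in KO in 71 of 72 in replicate 1 and in 67 in replicate 2. Both KO libraries exceeded both WT libraries in 63 (87.5%) and lay below both in 1 (1.39%). The median difference was 3.95 Traj numbers. Called segments came from each zone, 9 of 22 distal, 7 of 24 central and 8 of 26 proximal. Some called segments, such as Trav6d-4 and Trav14d-2, met the limit of 0.25% only through the 48 h libraries. All these Trav share the J usage of their library and are not replicates of each other. The count went to 0 without WT replicate 1, WT replicate 2, KO replicate 2 or either 48 h KO library.

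Trav15d-1-dv6d-1, a distal segment, had the largest rise. Its mean Traj number was 42.4 and 38.9 in WT and 47.5 and 51.9 in KO, a difference of 9.06 (SE 1.90, adjusted p = 0.0296, limma). Trav15-1-dv6-1, its counterpart in the proximal zone with 95.4% sequence identity, had 41.9 and 40.8 in WT and 46.2 and 52.1 in KO, a difference of 7.80 (adjusted p = 0.0323, limma). In both segments KO replicate 2 was the highest library. The difference was 5.05 in replicate 1 and 13.1 in replicate 2 for Trav15d-1-dv6d-1, and 4.25 and 11.4 for Trav15-1-dv6-1. Trav15d-1-dv6d-1 was rare in replicate 2, with shares of 0.494% and 0.0452% in WT and 0.387% and 0.106% in KO. Trav4d-4 had 36.3 in each WT library and 40.8 and 47.2 in KO, and Trav9d-3 had 41.4 and 40.6 in WT and 47.4 and 48.5 in KO. Both were called, with differences of 7.71 and 6.93 (adjusted p = 0.0296 for each, limma). Without KO replicate 2 the difference was 4.83 in Trav15-1-dv6-1 and 4.51 in Trav4d-4.

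Trav1, the Trav farthest from the J array and the V segment of the MAIT receptor, was the exception. Its mean Traj number was 29.8 and 30.8 in WT and 28.8 and 28.0 in KO, lower in both KO libraries (difference -1.96, SE 1.43, adjusted p = 0.233, limma). Trav1 also had the most 3' J partners of WT. It is a rare segment, with shares of 0.0794% and 0.0207% in WT and 0.0452% and 0.0293% in KO. Its mean over the 4 libraries of 24 h was 0.0436%, below the limit of 0.25%, which it met only through the 48 h libraries. Its mean Traj numbers at 24 h therefore rest on little usage. Other tested Trav were below that limit at 24 h too, among them Trav6d-4 (0.187%) and Trav14d-2 (0.190%), both called rises. Trav5-1 and Trav6-4, named next, were also below it, with 0.164% and 0.209%. Trav5-1, also at the distal end, had 31.5 and 33.02 in WT and 35.3 and 22.9 in KO, so its 2 KO libraries lay on either side of WT. Trav6-4 and Trav6d-5 had the smallest positive differences, 1.43 and 1.53, and in both KO replicate 2 was the lowest of the 4 libraries.

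**Figure D5:**
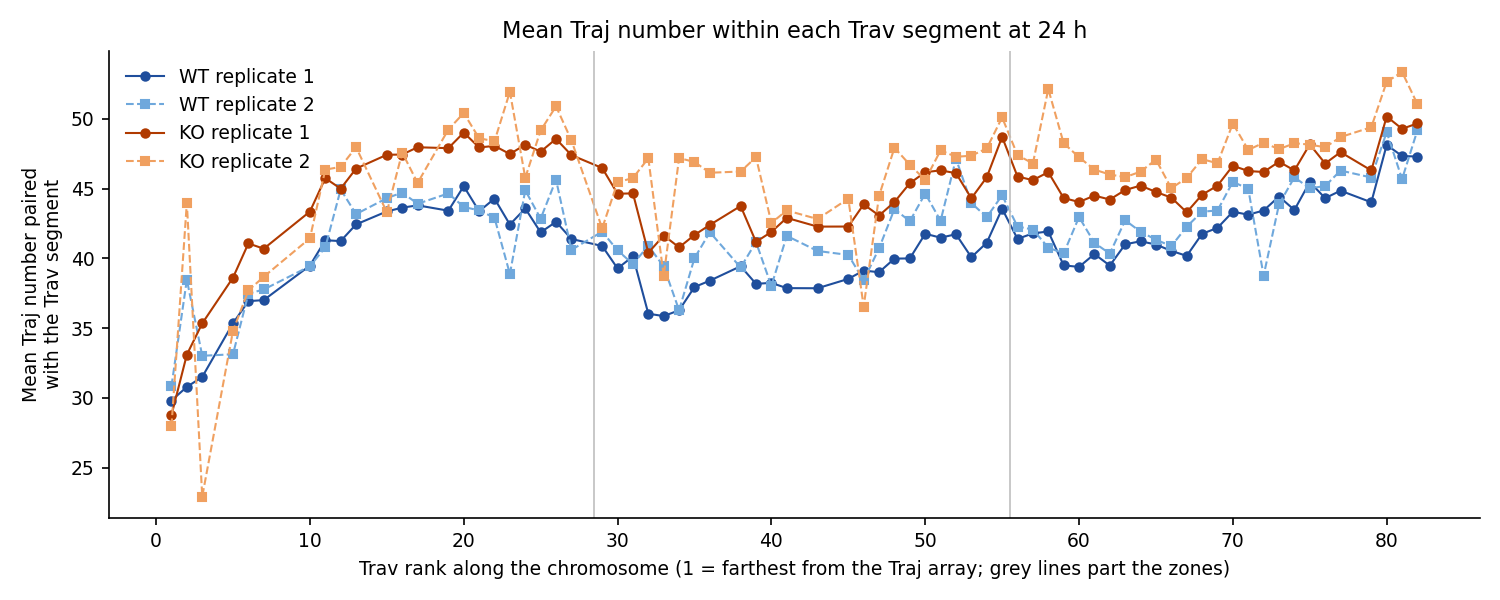
Usage-weighted mean Traj number of each of 72 Trav segments against their rank along the chromosome, for the 4 libraries of 24 h (lines join the segments of 1 library). KO replicate 1 lies above WT replicate 1 in 71 of 72 segments, and KO replicate 2 above WT replicate 2 in 67.

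Summed over zones, the mean Traj number of distal Trav was 41.5 and 42.97 in WT and 46.2 and 47.9 in KO. For central Trav it was 39.6 and 41.4 in WT and 43.9 and 46.1 in KO. For proximal Trav it was 42.7 and 43.5 in WT and 46.1 and 47.2 in KO. Central Trav thus had the most 3' partners in all 4 libraries. KO exceeded WT by 4.65 and 4.92 in the distal zone, 4.37 and 4.77 in the central zone and 3.38 and 3.70 in the proximal zone, in replicates 1 and 2. Within each library the usage-weighted correlation between Trav rank and Traj number, over pairs that share 1 library and as a description only, was weak. It was 0.118 and 0.0897 in WT and 0.0771 and 0.0354 in KO.

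Usage of the Trav segments themselves showed no difference that passed the test. Of the 82 Trav segments, 0 (0%) were called by limma, with 0 at an unadjusted p under 0.05 and a smallest adjusted p of 0.975. With the replicate number as a block 0 were called and 8 had an unadjusted p under 0.05. With the block and only the 4 libraries of 24 h, a fit added after seeing the data, 4 fell, which were Trav5-1, Trav7-1, Trav6-2 and Trav6-3. Groups did not overlap in 4 segments with KO higher (4.88%) and 7 with KO lower (8.54%). The spread between replicates in Trav usage was wide, so a missed threshold does not show that Trav usage was equal. The authors' assignment of reads to near-identical copies is not given in the sources used here, and 48 of the 80 Trav with an annotated sequence have another of at least 97% identity, so shares of single copies are uncertain.

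Trav17, a proximal segment at chr14:53806639-53807115 whose closest annotated Trav has 78.7% identity, had the largest gain among segments of at least 0.5% without overlap. It took 2.09% and 1.52% in WT and 3.21% and 2.32% in KO (log2 difference 0.61, SE 0.41, adjusted p = 0.975, limma). Trav12-1, a central segment, took 0.598% and 0.478% in WT and 0.676% and 0.929% in KO. Trav12d-2, a distal segment, took 0.921% and 0.705% in WT and 0.975% and 0.994% in KO. These 3 were the only segments of that size with both KO libraries above both WT libraries. Trav14d-3-dv8, with 0.759% and 0.740% in WT and 0.636% and 0.642% in KO, and Trav7-4, with 3.35% and 3.60% in WT and 3.11% and 3.13% in KO, were the 2 with both below. None of the 5 passed the test. Trav21-dv12, the Trav nearest the J array, took 3.61% and 1.47% in WT and 4.05% and 1.97% in KO. KO was higher within each replicate number and the groups overlapped. Trav11, the V segment of the invariant NKT receptor, took 0.473% and 0.0984% in WT and 0.408% and 0.0471% in KO, and its share followed the replicate number.

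By zone, distal Trav held 15.9% and 14.4% in WT and 14.02% and 14.2% in KO. Central Trav held 26.2% and 20.7% in WT and 22.7% and 19.5% in KO, and proximal Trav 57.8% and 64.9% in WT and 63.3% and 66.3% in KO. KO minus WT in the proximal zone was 5.43 percentage points in replicate 1 and 1.44 in replicate 2, with overlapping groups. The usage-weighted mean Trav rank, counted from the distal end, was 54.2 and 56.6 in WT and 56.7 and 56.97 in KO, a difference of 2.53 ranks in replicate 1 and 0.42 in replicate 2. The proximal lean of KO was therefore mostly that of replicate 1. The 35 segments with a d suffix, which marks the duplicated part of the V array, held 21.2% and 20.8% in WT and 18.3% and 21.1% in KO.

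The V partners of single J segments were tested next. Of the 43 Traj segments 0 (0%) differed in mean Trav rank by limma, 2 had an unadjusted p under 0.05, and the smallest adjusted p was 0.218. With the replicate block 0 were called and 10 had an unadjusted p under 0.05. The rank was higher in KO in 42 of 43 segments in replicate 1 and in 19 in replicate 2. Traj9 had the largest difference, 49.5 and 50.4 in WT and 55.4 and 59.5 in KO (difference 7.46, SE 2.43, adjusted p = 0.218, limma). It was called with only the 4 libraries of 24 h (adjusted p = 0.0296), with these and the block (0.0117), and without either 48 h WT library (0.0272). Traj13 followed, with 49.04 and 44.3 in WT and 52.8 in each KO library (difference 6.13, adjusted p = 0.218, limma), and was called with the 4 libraries and the block (adjusted p = 0.0473). Traj2 lay at the other end, with 54.2 and 54.7 in WT and 53.9 and 47.1 in KO.

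Of the 3526 single Trav-Traj pairs, 0 (0%) were called by limma, with 82 at an unadjusted p under 0.05 and a smallest adjusted p of 1. With the replicate block 0 were called and 195 had an unadjusted p under 0.05. Groups did not overlap in 194 pairs with KO higher (5.5%) and 623 with KO lower (17.7%). These pairs were spread unevenly over the J windows. In the window Traj58 to Traj53 KO was higher in 102 of 328 pairs (31.1%) and lower in 3 (0.915%). In the window Traj38 to Traj31 it was higher in 5 of 574 (0.871%) and lower in 163 (28.4%). In the window Traj11 to Traj2 it was higher in 6 of 574 (1.05%) and lower in 85 (14.8%), the latter below the 17.7% of all pairs. By zone the counts were closer, with 55 higher and 197 lower of 1204 distal pairs and 83 and 220 of 1161 proximal pairs. Only 1288 pairs were above 0 in all 4 libraries, 223 of 328 in the most 5' window and 26 of 574 in the most 3' one. KO had more pairs at 0 than WT in replicate 1 (518 against 265) and in replicate 2 (1985 against 1510). The part of these zeros in the counts was not tested.

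Among the 561 pairs above 0 in every library with a mean of at least 0.05%, 86 had both KO libraries above WT and 66 both below. Over all 3526 pairs these counts were 194 (5.5%) and 623 (17.7%), so in the filtered pairs the balance lay the other way. The filter itself favours 5' pairs. From Traj58 to Traj53, 223 of 328 pairs were above 0 in all 4 libraries, against 26 of 574 from Traj11 to Traj2. The balances are therefore not over like sets of pairs. Among the filtered pairs without overlap, the 6 with the highest log2 differences were 5 pairs of Traj58 and 1 of Traj56. Trav12d-2-Traj58 took 0.0931% and 0.0329% in WT and 0.180% and 0.229% in KO, and Trav17-Traj58 took 0.104% and 0.0536% in WT and 0.211% and 0.182% in KO. WT replicate 2 was the lowest library in both, as it was for Traj58 as a whole. Trav4d-3-Traj56 took 0.0470% and 0.0454% in WT and 0.0912% and 0.277% in KO. The 6 with the lowest differences joined Traj37, Traj34, Traj33 and Traj27. Trav13d-1-Traj37 took 0.0590% and 0.119% in WT and 0.0271% and 0.00598% in KO, and Trav14-1-Traj34 took 0.126% and 0.115% in WT and 0.0658% and 0.0235% in KO. None of these pairs passed the test.

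The most used pairs followed the replicate number. Trav14-3-Traj49 had the highest mean in WT, with 0.276% and 1.07%, and took 0.371% and 0.829% in KO. Trav15-2-dv6-2-Traj49 had the highest mean in KO, with 0.104% and 1.34%, and took 0.0752% and 0.781% in WT. In both pairs replicate 2 was above replicate 1 in both genotypes.

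Usage was less evenly spread over pairs in KO within each replicate number. Shannon diversity over pairs was 10.5 and 9.90 bits in WT and 10.1 and 9.42 bits in KO, which corresponds to 1490 and 959 equally used pairs in WT and 1122 and 686 in KO. The 100 most used pairs held 21.1% and 32.6% in WT and 27.5% and 40.6% in KO. The groups overlapped, since replicate 2 of each genotype was less diverse than replicate 1. The coarser steps and larger number of zeros in replicate 2 go with this, and their part in it was not tested. KO also had more pairs at 0 than WT within each replicate number, 518 against 265 in replicate 1 and 1985 against 1510 in replicate 2. With depth unknown, the part of these zeros in the difference between genotypes was not tested either.

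Pairs of the invariant receptors of other T cells were at or near 0. Trav11-Traj18, of invariant NKT cells, took 0.0188% and 0 in WT and 0.00822% and 0 in KO. Trav1-Traj33, of MAIT cells, took 0.00427% in WT replicate 1 and was listed at 0 in the other 3 libraries. The 10 dv-named Trav, which gamma-delta T cells can also use, held 16.2% and 23.6% in WT and 16.4% and 28.5% in KO. In replicate 1 the genotypes differed by 0.189 percentage points and in replicate 2 by 4.93. The dv share therefore moved with the replicate number, and its part in the Traj differences was not tested.

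The same sort at 48 h showed whether the 24 h difference was of the same size there. The mean Traj number was 31.9 and 33.6 in WT at 48 h and 38.6 and 38.5 in KO. The difference of the KO effect between 24 h and 48 h was tested for each Traj by an interaction contrast in limma. It was called in 0 of 43 (0%), with 15 at an unadjusted p under 0.05 and a smallest adjusted p of 0.0648. With the replicate number as a block, 5 were called with KO minus WT more positive at 24 h than at 48 h and 14 with it more negative. The 14 comprised all 5 segments from Traj44 to Traj39, 6 of the 7 from Traj38 to Traj31, Traj45, Traj30 and Traj27. The 5 were Traj58 and 4 of the 7 segments from Traj11 to Traj2. The sign of the contrast does not give the size of an effect. Among the 5, Traj58 had a larger gain at 24 h, whereas the loss of Traj2 was smaller at 24 h (-1.87 and -1.68) than at 48 h (-2.94 and -2.32). Traj37, among the 14, was at -0.54 and -0.80 at 24 h and at 0.15 and -0.17 at 48 h. Traj2 took 1.15% and 0.957% in WT and 0.141% and 0.184% in KO at 48 h, and its interaction of 0.85 had an adjusted p of 0.0866 (limma), or 0.0324 with the block. Traj58 took 2.13% and 2.03% in WT and 2.62% and 1.95% in KO at 48 h, so its groups overlapped there, and its interaction was 0.90 (adjusted p = 0.136, limma, and 0.0324 with the block).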

How the data were processed

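Tcra transcripts of sorted thymocytes were sequenced after template-switch RACE, per the labels' protocols. The authors deposited one Trav by Traj table per library, in fractions. Aligner, build, annotation and counted unit: not given in the sources used here, so depth is unknown.

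Each table was divided by its total over the 82 Trav listed in all 4 tables of 24 h. TRAV2 and TRAV18, listed in only some, were left out. Shares were summed per Traj, per Trav and per block. Limma 3.58.1 in R 4.3.3 was fitted to log2(percent + 0.01), with one mean per group over the 8 ZsGreen-positive libraries of 24 h and 48 h (4 residual degrees of freedom) and Benjamini-Hochberg adjustment at 0.05. The steady-state libraries, which earlier results showed to vary less, entered only an alternative. This scale understates changes of low shares. Mean Traj number and mean Trav rank were tested untransformed. The scripts were tested on simulated data.

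The members, lists and tests were chosen with earlier results of these data known. Named Traj were the one with the largest difference in each window plus 8 fixed ones (Traj58, Traj57, Traj56, Traj53, Traj49, Traj33, Traj18 and Traj2). Named Trav were the up to 5 highest and 5 lowest among those of at least 0.5% without overlap, plus Trav1, Trav11 and the most proximal. Named pairs were the 6 most used per genotype and the 6 highest and 6 lowest without overlap among those above 0 in all 4 libraries with a mean of at least 0.05%. For means within a segment the 4 highest and 4 lowest were named. Trav order and positions came from GENCODE M21 (GRCm38), which held 80 of the 82 Trav.

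Replicate numbers were taken from the titles. The main fit did not pair the libraries by them, and pairing entered only as the replicate block, an alternative. Replicate 2 minus replicate 1 correlated between WT and KO at 24 h by 0.67 over Traj, 0.93 over Trav and 0.65 over pairs, and all 6 combinations of the ZsGreen-positive groups were above 0.1. Number and table form coincide. Alternatives were other pseudocounts, a filter on low shares, a replicate block, other sets of libraries, each table's own total, a centred scale, and leaving out each library.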

Additional observations from a re-analysis of the deposited data

Results flagged for a closer look

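In 6 Traj segments the KO lay below WT in both libraries at 24 h and above WT in both at 48 h. The difference between the KO effects at the 2 times was -0.84 for Traj43, -0.90 for Traj42, -0.73 for Traj40, -0.97 for Traj39, -0.70 for Traj35 and -0.66 for Traj34 on the log2 scale. None passed in the limma interaction contrast (adjusted p 0.0648 to 0.0976), and all 6 did with the replicate block (0.0252 to 0.0459). Traj39 took 3.07% and 3.03% in WT and 2.55% and 2.19% in KO at 24 h, and 2.65% and 2.61% in WT and 3.93% and 4.04% in KO at 48 h. On the centred scale the 24 h difference was above 0 in 5 of the 6, and was -0.0006 in Traj35, so the change of sign depends on the scale while the interactions stayed below 0 (-0.47 to -0.79).

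TRAV18 was listed in KO replicate 2 alone among the 4 tables of 24 h, with 0.0938% of that table's total. It entered no comparison.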

How the results depend on the processing

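Depth is unknown, and the coarse steps of replicate 2 limit single pairs most. Each named segment, pair and block and each library value was compared with its main result once per alternative. Of these comparisons, 1211 kept the direction and side of the threshold. A call was lost in 79 and gained in 34, 13 moved and 22 changed direction. Where 1 library is left in an arm, it is assumed to vary like the others.

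With only the 4 libraries of 24 h, 2 Traj rose and 18 fell, 7 blocks fell and 1 Traj rose in mean Trav rank. With these libraries and the replicate block, 4 Trav fell, the mean Traj number rose in 41 Trav and the mean Trav rank in 2 Traj. On the centred scale 7 Traj rose and 5 fell, and 6 blocks rose and 4 fell. Traj39 (0.16) and the blocks of Traj44 to Traj39 with central (0.028) and proximal (0.32) Trav turned positive there. Pseudocount 0.1 gave interactions of 3 Traj higher and 2 lower, the replicate block 5 and 14, and all 12 libraries 3 and 10. Pairing by replicate number, fitted as a replicate block, moved no other count of adjusted calls by over 1.5 times. It raised the Traj with an unadjusted p under 0.05 in mean Trav rank from 2 to 10. Within replicate 2 the difference of d-suffixed Trav was 0.269 points.

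Leaving out 1 library at a time gave 0 to 5 Traj that rose and 12 to 26 that fell, 0 to 3 and 4 to 13 blocks, 0 to 36 Trav whose mean Traj number rose and 0 to 1 that fell, 0 to 1 Traj whose mean Trav rank rose, and 0 to 1 higher and 0 to 9 lower interactions. Log2 differences ran from -0.94 to 0.60 for Trav1, -2.004 to 0.87 for Trav11 and -0.35 to 0.93 for Trav21-dv12. Differences in mean Traj number ran from -9.33 to 3.08 for Trav5-1, from -2.23 to 5.10 for Trav6-4 and from -0.53 to 3.58 for Trav6d-5. They ran from 4.83 to 10.8 for Trav15-1-dv6-1 and from 4.51 to 10.9 for Trav4d-4. The difference in mean Trav rank ran from -5.57 to 3.18 for Traj11. Differences in percentage points ran from -1.10 to 4.17 for the 10 most used pairs, -5.11 to 0.389 for central, -0.0997 to 6.96 for proximal, -2.68 to 0.0845 for d-suffixed and -3.50 to 8.62 for dv Trav. The difference in the observed over expected share of proximal Trav with Traj11 to Traj2 ran from -0.0645 to 0.0184. The low ends and zeros came without WT replicate 1 or KO replicate 2 for Traj and blocks. The cause was not tested.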

Other observations

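Along the V array the mean Traj number did not move in one direction. In WT replicate 1 it was 29.8 at Trav1, the farthest Trav, and 42.6 at Trav12d-2 near the end of the distal zone. It was 36.3 at Trav4d-4 early in the central zone, and 47.3 at Trav21-dv12, the nearest Trav. WT replicate 2 gave 30.8, 45.6, 36.3 and 49.2 at the same segments. KO replicate 1 gave 28.8, 48.6, 40.8 and 49.7. KO replicate 2 gave 28.0, 50.9, 47.2 and 51.0, so the dip at Trav4d-4 was shallower there. These segments were chosen after the values were seen.

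Central Trav were joined to Traj58 to Traj53 less often than their share and the window's share alone would give, with observed over expected ratios of 0.655 and 0.787 in WT and 0.749 and 0.878 in KO. Distal Trav gave 1.01 and 1.07 in WT and 1.10 and 1.17 in KO, so both KO libraries were above both WT libraries. Proximal Trav gave 1.15 and 1.05 in WT and 1.07 and 1.00 in KO. These ratios were not tested.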
